A study of Mus musculus with 6 samples.

Results

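Replication-dependent histone genes encode the proteins around which newly copied DNA is wrapped. They were taken here as every row of the deposited gene count table whose symbol began with Hist1h, Hist2h, Hist3h or Hist4h, which gave 68 of 24421 rows. The class follows in the symbol: 6 rows were linker histone H1, 18 were H2A, 19 were H2B, 12 were H3 and 13 were H4. The study sequenced RNA of regulatory T cells (Tregs, CD4+ T cells that express the transcription factor Foxp3 and restrain immune responses), purified from spleen and lymph nodes of mice. It compared cells lacking Srebp2, the transcription factor that turns on the genes of cholesterol synthesis, with cells that carry it. Srebp2WT libraries came from mice labelled Srebp2WT/WT-Foxp3YFPCRE+/+ (replicates 1, 3 and 5), and Srebp2cKO libraries from mice labelled Srebp2FL/FL-Foxp3YFPCRE+/- (replicates 6, 7 and 8). Both genotypes carry a Cre recombinase fused to yellow fluorescent protein at the Foxp3 gene, which restricts deletion to cells that express Foxp3, and the labelled dose of that allele differed along with the Srebp2 genotype. The labels give neither the age of the mice nor the gate used to purify the cells, nor whether each library came from a separate animal, so the p-values below measure the spread between these libraries, which may be technical.

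Replication-dependent histone genes are transcribed mainly in S phase, when the cell needs histones for new chromatin, from a nuclear body organised by the factor NPAT. Their transcripts have no introns in the usual case and do not end in a poly(A) tail. They end in a short stem-loop that is bound by the stem-loop binding protein SLBP, cut by a complex guided by the U7 RNA, and used again when the transcript is degraded at the end of S phase. Some members can also make longer transcripts that run past the stem-loop and carry a poly(A) tail, chiefly in cells that have left the cycle. The libraries were made from total RNA after removal of ribosomal RNA, a procedure that does not select for a poly(A) tail.

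The stem-loop is shown because it is the element that defines these transcripts, and because whether a gene model contains it divides the results further on. The GENCODE M21 transcripts of each row were searched from the longest down, and the first with a match was taken as its model. The element was read as a run of 16 bases, GG, 2 pyrimidines, CT, any 4 bases, AG, 2 purines, CC, and was found in 46 of the 68 models. Capitals mark the 6-base arms of the stem and lower case the 4-base loop, written as DNA:
Hist1h1c, in H1, with the form found in 26 models of H1, H2A, H2B and H3: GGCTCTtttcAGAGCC
Hist1h3e, in H3, with the form found in 6 models: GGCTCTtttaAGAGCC
Hist1h4d, in H4, with the form found in 7 models: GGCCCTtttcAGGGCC
Hist1h4b, in H4, with the form found in 2 models: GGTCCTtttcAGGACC
Hist1h3g, in H3, with the form found in 1 model: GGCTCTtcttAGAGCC
The stem of every H4 model with a match differed from the stem shared by the H1, H2A, H2B and H3 models. In Hist1h3e the element lies at chr13:23561903-23561918 on the minus strand, and its model continues for 369 bases beyond it. The Hist1h1c element lies at chr13:23739512-23739527 on the plus strand with 840 model bases beyond it, and the Hist1h4d element at chr13:23581950-23581965 on the plus strand with 770 bases beyond it (all GRCm38). Of the 22 models without a match, 16 had fewer than 16 bases annotated after the stop codon. This count includes the pseudogene Hist3h2bb-ps, which has no annotated coding sequence. In the rest of them the model ended before the element could be present. The other models without a match, those of Hist1h1a, Hist1h2bc, Hist1h2bq, Hist1h2br, Hist2h2be and Hist2h3b, had 37 to 2192 bases annotated after the stop codon. An element unlike the pattern searched would not be found.

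The start sites are shown for 4 members that the comparison below turns on or that carry a motif found in only some classes. RefSeq promoter windows (GRCm38.p6, 250 bases before to 50 after the annotated start) were matched for 62 of the 68 rows through their gene identifiers. Each line gives the 120 bases before the start, 5' to 3' on the gene's strand, with capitals on 3 motifs searched on both strands, the octamer ATTTGCAT, the CCAAT box and TATAAA (opposite strand: ATGCAAAT, ATTGG and TTTATA):
Hist1h3e, H3, chr13:23562386-23562505, minus strand: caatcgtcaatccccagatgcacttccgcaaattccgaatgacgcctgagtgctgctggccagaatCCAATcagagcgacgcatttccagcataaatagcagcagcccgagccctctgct
Hist1h3i, H3, chr13:21783398-21783517, minus strand: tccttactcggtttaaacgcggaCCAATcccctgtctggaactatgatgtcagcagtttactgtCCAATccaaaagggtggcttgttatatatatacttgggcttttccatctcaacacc
Hist1h4k, H4, chr13:21750554-21750673, minus strand: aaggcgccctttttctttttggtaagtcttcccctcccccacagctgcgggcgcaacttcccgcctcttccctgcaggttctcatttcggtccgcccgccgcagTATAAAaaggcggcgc
Hist1h2bb, H2B, chr13:23746614-23746733, plus strand: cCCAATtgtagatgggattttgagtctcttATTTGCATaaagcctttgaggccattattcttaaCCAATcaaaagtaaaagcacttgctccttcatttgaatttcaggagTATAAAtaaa
The octamer, the site read by Oct1 in histone H2B genes, was present in 7 of 16 H2B windows and 7 of 18 H2A windows. It was found in 0 of 6 H1, 0 of 10 H3 and 0 of 12 H4 windows, against 1.97% of 27025 windows of the same length in the table. CCAAT was present in every H1, H2A, H2B and H3 window matched and in 3 of 12 H4 windows, against 41.1% of all windows. TATAAA was present in 35 of 62 windows (56.5%), against 15.7% of all windows. H2A and H2B genes share some of these letters, because 13 pairs of them start in opposite directions with 172 to 305 bases between the starts.

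The members are close copies of one another, and this limits what a single row says. In GENCODE M21 (GRCm38), 54 rows lie in the large cluster on chromosome 13 (chr13:21715763-23934851), 10 on chromosome 3 (chr3:96219865-96270132), 3 on chromosome 11 (chr11:58948920-58956830) and 1 on chromosome 6 (chr6:136801553-136804415). When each longest transcript was cut into all its 50-base words, fewer than 50% of the words were unique among annotated transcripts for 34 of the 68 rows, and no word was unique for 5. The median share of unique words was 98.9% for H1, 60.5% for H4, 54.7% for H2B, 38.0% for H3 and 27.0% for H2A. Counts were the same in every library for both rows of 4 pairs (Hist1h2ao and Hist1h2ap, Hist1h2bq and Hist1h2br, Hist2h2aa1 and Hist2h2aa2, Hist2h3c1 and Hist2h3c2), so the table held 64 distinct rows. No source used here gives how the authors' counting divided reads between copies. Values of rows with few unique words are uncertain, also where this is not repeated below. In all, 21 rows overlap a gene on the opposite strand, and the strand setting of the counting is likewise not stated. On the same strand 7 rows overlap a gene, such as Hist1h1e with Hist1h2be and Hist3h2a with Trim17. Shared words are therefore not all those of copies.

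Library totals ran from 13918321 to 17249898 counts, and histone rows took 0.0630% to 0.0937% of them. Srebf2, the gene encoding Srebp2, stood at 191, 192 and 172 CPM (read counts per library size after edgeR's TMM scaling, as for all CPM below) in Srebp2WT and at 13.7, 12.7 and 10.7 CPM in Srebp2cKO, with a log2 fold change of -3.91 (SE 0.11, edgeR adjusted p = 1.49e-08). Foxp3 did not pass the test, with 440, 460 and 461 CPM in Srebp2WT and 466, 420 and 419 CPM in Srebp2cKO (log2 fold change -0.06, edgeR adjusted p = 0.611). Summed marker lists of other cell types were not equal between genotypes. Most of each sum came from 1 or a few genes, which need not come from the cells the list is named after. Over 6 B cell markers the summed level was 56.4 to 77.4 CPM in Srebp2WT and 26.0 to 34.6 CPM in Srebp2cKO, with 3 of 4 tested lower (Cd74, Cd22 and Cd79b) and the defining marker Ms4a1 at 0 to 0.129 CPM. The fourth, Cd79a, stood at 0.501, 0.709 and 0.812 CPM against 1.03, 0.968 and 0.991 CPM, higher without overlap, and did not pass (log2 fold change 0.56, edgeR adjusted p = 0.308). Summed levels of 6 myeloid markers were 50.4 to 82.8 and 33.5 to 39.6 CPM (1 of 2 tested lower, Cybb, with Lyz2 at 0.0645 to 0.313 CPM). Cybb alone had means of 60.7 and 33.1 CPM, and the other tested marker, Itgam, went the other way, with means of 0.960 and 2.03 CPM, and did not pass (log2 fold change 1.07, edgeR adjusted p = 0.108). Summed levels of 4 plasma cell markers were 36.4 to 43.3 and 28.6 to 29.5 CPM (1 of 1 tested lower, Prdm1). For 3 natural killer cell markers they were 1.61 to 2.69 and 0.808 to 0.991 CPM (1 of 1 tested lower, Klrb1c). The other markers of both lists had too few counts for the filter, so neither sum shows that cell type. Summed levels of 2 CD8 T cell markers were 6.97 to 7.39 and 8.77 to 10.5 CPM. For 5 stroma markers they were 168 to 176 and 218 to 235 CPM (1 of 2 tested higher, Pecam1, with means of 171 and 224 CPM). Nearly all of that sum was Pecam1, so it does not show stroma. The other tested marker, Col1a1, had a negative log2 fold change and did not pass. The 5 erythroid precursor markers summed to 0 to 0.583 CPM. The part of other cells in the histone values was not tested.

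Transcripts of the replication-dependent histone genes, summed over all 68 rows, were lower in Srebp2cKO Tregs. The sum was 912, 810 and 903 CPM in Srebp2WT replicates 1, 3 and 5 and 747, 636 and 797 CPM in Srebp2cKO replicates 6, 7 and 8, so the groups did not overlap, and the Srebp2cKO mean of 727 ± 83 CPM was 83.0% of the Srebp2WT mean of 875 ± 56 CPM (SD, n = 3 each). Without the row of most counts in each class, the sums were 583, 480 and 554 CPM against 432, 348 and 486 CPM. Those overlapped, with the Srebp2cKO mean at 78.3% of Srebp2WT. Of the 5 classes H3 differed most, with the Srebp2cKO mean at 54.6% of Srebp2WT, and H1 was at 89.1%. The classes were not tested against one another, and the order of the other 4 changes without Srebp2cKO replicate 7, where the log2 ratio was -0.63 for H3, -0.17 for H1, -0.16 for H2A, -0.14 for H2B and -0.16 for H4. Few single genes passed the test. In edgeR's quasi-likelihood test at a false discovery rate of 0.05, 3 of the 62 members tested fell and 0 rose, which is 4.84% lower. Of all 11932 genes tested, 4.24% were called lower and 2.37% higher (6.61% in either direction). That share is near the background and is not a result about these genes. In bulk samples, fewer cells in S phase and less histone RNA per cell cannot be told apart.

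**Figure D1:**
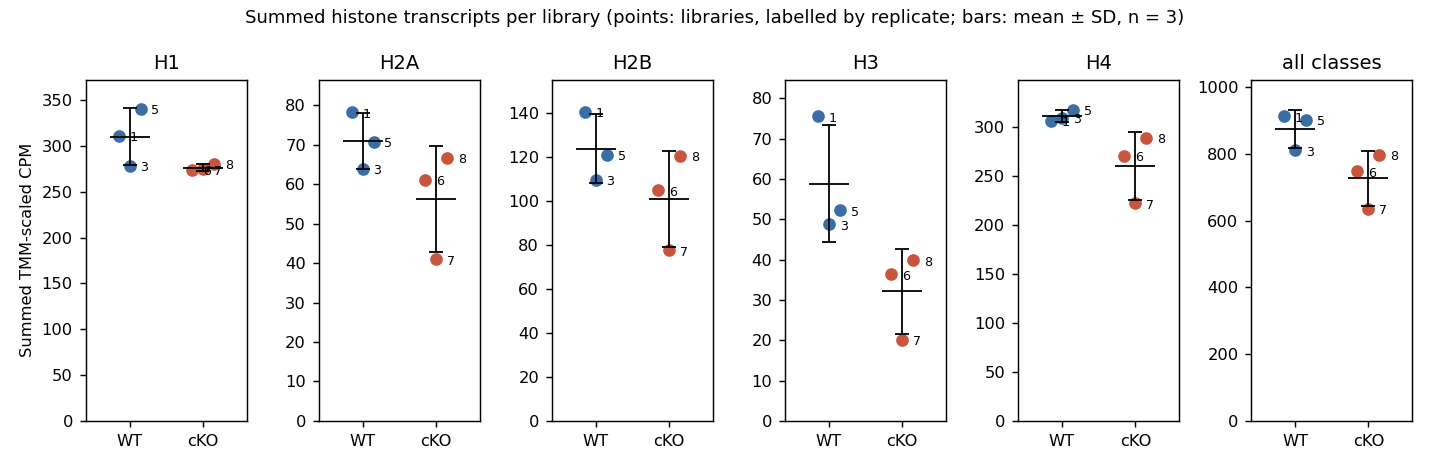
Summed CPM of each histone class and of all classes (vertical axes, from 0) in Srebp2WT and Srebp2cKO libraries. Points are libraries labelled by replicate number, and bars are mean ± SD with n = 3. Srebp2cKO points lie below all Srebp2WT points for H3, H4 and all classes, and replicate 7 is the lowest of its group for H2A, H2B, H3 and H4.

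Signs leaned one way more than calls did. The log2 fold change (Srebp2cKO minus Srebp2WT) was negative for 55 and positive for 7 of the 62 tested members, while 5968 of all 11932 genes tested were negative. The median was -0.48 for the members and -0.00 for all genes tested. All 3 Srebp2cKO libraries lay below all 3 Srebp2WT libraries for 17 members and above them for 0, against 15.5% and 16.0% of all genes. Before adjustment, 19 members were lower and 0 higher at p under 0.05, against 14.3% and 14.8% of all genes. No member was higher at a false discovery rate of 0.05 with DESeq2 or limma-voom either. Of the 6 members not tested, Hist1h2aa and Hist1h2ba, which encode testis-specific variants, had 0 counts in all 6 libraries, which allows up to 3 counts in each. The testis linker histone Hist1h1t, Hist1h2an, Hist1h2ao and Hist1h2ap had too few counts for the filter. The members share sequence and a time of transcription, so their signs are not independent of one another.

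**Figure D2:**
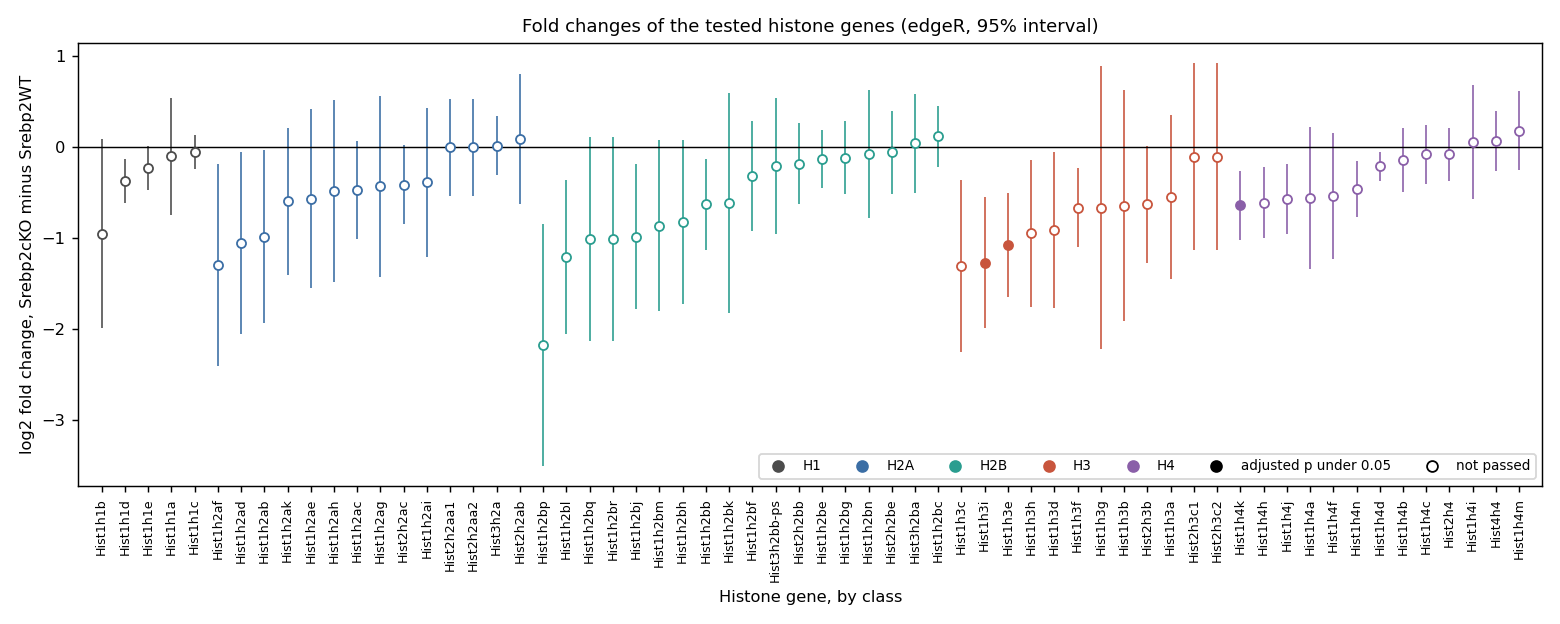
edgeR log2 fold change of each of the 62 tested histone genes (vertical axis, Srebp2cKO minus Srebp2WT) with its 95% interval, by class. Filled points are the 3 genes with an adjusted p under 0.05, which are Hist1h3e, Hist1h3i and Hist1h4k, and 55 of the 62 points lie below 0.

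H3, which with H4 forms the tetramer at the centre of the nucleosome, showed the largest difference. Its summed level was 75.6, 48.8 and 52.2 CPM in Srebp2WT and 36.4, 20.1 and 39.9 CPM in Srebp2cKO, and the lowest Srebp2WT library lay above the highest Srebp2cKO library. All 12 H3 rows had a negative log2 fold change (median -0.67), 6 were separated without overlap and 2 passed the test. Hist1h3e, at chr13:23561534-23562369, a single exon on the minus strand, stood at 22.1, 16.4 and 12.1 CPM in Srebp2WT and 9.84, 5.10 and 9.04 CPM in Srebp2cKO. That is a log2 fold change of -1.08 (SE 0.26, edgeR adjusted p = 0.0370). Srebp2WT replicate 1 was the highest library and Srebp2cKO replicate 7 the lowest, and the groups did not overlap. Hist1h3i, at chr13:21782960-21783370, also a single exon on the minus strand, stood at 8.52, 3.61 and 4.60 CPM in Srebp2WT and 2.2, 2.06 and 2.62 CPM in Srebp2cKO (log2 fold change -1.28, SE 0.32, edgeR adjusted p = 0.0448). Its Srebp2cKO libraries were close together, while replicate 1 stood apart within Srebp2WT. Only 26.6% and 12.4% of the 50-base words of Hist1h3e and Hist1h3i were unique, the rest being shared with other H3 genes, so the values may include reads of those copies. With one library left out, Hist1h3e passed without Srebp2WT replicate 5 or Srebp2cKO replicate 6 and in none of the other 4 fits (edgeR adjusted p from 0.0191 to 0.153), and Hist1h3i passed only without Srebp2WT replicate 5 (0.0418 to 0.174). Hist1h3f, which shares most with Hist1h3e, stood at 16.7, 11.5 and 12.9 CPM against 9.40, 6.45 and 9.97 CPM, without overlap, and did not pass (log2 fold change -0.67, edgeR adjusted p = 0.0649). Hist1h3c, Hist1h3d and Hist1h3h were also separated and did not pass, and the cluster 2 rows Hist2h3c1 and Hist2h3c2 had the smallest difference of the class (log2 fold change -0.11). Hist1h3g, the single member found with the last of the stem-loop forms shown, was at 2.57, 0.258 and 2.44 CPM in Srebp2WT and 0.661, 0.452 and 2.10 CPM in Srebp2cKO, which overlap.

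The share of H3 among all histone CPM ran from 5.78% to 8.28% over the Srebp2WT libraries and was 4.87%, 3.17% and 5.00% in Srebp2cKO. These ranges did not overlap, though Srebp2WT replicate 5 and Srebp2cKO replicate 8 were close. H4 took 33.6% to 38.2% of histone CPM in Srebp2WT and 35.0% to 36.3% in Srebp2cKO, and those ranges overlapped. H1 took 34.1% to 37.7% and 35.2% to 43.2%, the highest share being that of Srebp2cKO replicate 7. These are shares of counts and not of molecules, because the models differ in length.

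H4 was the second class whose summed level did not overlap between genotypes. It was 307, 310 and 318 CPM in Srebp2WT, a narrow range, and 271, 222 and 289 CPM in Srebp2cKO. Of 13 rows, 10 were negative, 5 were separated, and Hist1h4k passed. Hist1h4k, at chr13:21750194-21750505, is annotated as a single exon on the minus strand that ends with the coding sequence. It stood at 28.8, 23.9 and 28.3 CPM in Srebp2WT and 15.5, 13.7 and 22.4 CPM in Srebp2cKO (log2 fold change -0.65, SE 0.17, edgeR adjusted p = 0.0498). The groups did not overlap, and Srebp2cKO replicate 8 was the library nearest to Srebp2WT. With one library left out, Hist1h4k passed only without that library (edgeR adjusted p from 0.00881 to 0.178). Hist1h4d, the H4 row with the most counts, stood at 93.8, 102 and 95.1 CPM against 85.4, 81.5 and 83.1 CPM. The 2 groups were tight and separate, and the difference was small and did not pass (log2 fold change -0.22, SE 0.07, edgeR adjusted p = 0.0893). Hist1h4h stood at 24.8, 24.8 and 25.4 CPM against 20.9, 11.5 and 16.7 CPM (log2 fold change -0.61, edgeR adjusted p = 0.0618), and Hist1h4n at 28.1, 29.6 and 29.7 CPM against 22, 16.5 and 25 CPM (log2 fold change -0.46, edgeR adjusted p = 0.0705). Both were separated with Srebp2cKO replicate 7 lowest, and only 14.4% of the words of Hist1h4n were unique. Hist1h4c overlapped, at 33.8, 44.6 and 39.4 CPM against 38.9, 29.4 and 42.8 CPM, and the 3 positive rows of the class were Hist1h4i (log2 fold change 0.05), Hist1h4m (0.18) and Hist4h4 (0.06).

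H1, the linker histones that bind DNA between nucleosomes, overlapped between genotypes, with a median log2 fold change of -0.23 beside -0.22 for H4. The summed level was 311, 278 and 341 CPM in Srebp2WT and 274, 275 and 280 CPM in Srebp2cKO, and the lowest Srebp2WT library lay within the Srebp2cKO range. Hist1h1c, at chr13:23738808-23740367, made up 19.0% to 26.6% of histone CPM in the 6 libraries. It stood at 173, 169 and 202 CPM against 178, 169 and 175 CPM, which overlap (log2 fold change -0.06, 95% interval -0.25 to 0.13). Hist1h1d stood at 53.8, 40.3 and 47.0 CPM against 34.2, 36.5 and 38.0 CPM. Its groups were separated and it did not pass (log2 fold change -0.38, SE 0.11, edgeR adjusted p = 0.0657). Hist1h1e stood at 59.9, 58.7 and 67.7 CPM against 48.5, 60.8 and 49.0 CPM, which overlap through Srebp2cKO replicate 7. Among the lower rows, Hist1h1a overlapped at 5.41 to 10.7 CPM over all libraries, and Hist1h1b stood at 15.9, 4.51 and 13.3 CPM against 7.64, 2.26 and 7.46 CPM.

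H2A and H2B, which pair as dimers on the outside of the tetramer, had lower means whose libraries overlapped between genotypes. H2A summed to 78.3, 64.0 and 70.7 CPM in Srebp2WT and 61.1, 41.0 and 66.7 CPM in Srebp2cKO, and H2B to 141, 110 and 121 CPM and 105, 77.6 and 121 CPM. In both classes Srebp2cKO replicate 8 reached into the Srebp2WT range and replicate 7 lay far under it. No H2A or H2B row passed the test, and with DESeq2 the only one called was Hist1h2bp. At an unadjusted p under 0.05, 3 of 14 and 4 of 18 tested rows were lower and 0 higher. Of all genes tested, 14.3% were lower and 14.8% higher at that p. Among the H2A rows with the most counts, Hist2h2ac stood at 20.8, 18.7 and 17.6 CPM against 17.8, 9.55 and 15.4 CPM, and Hist3h2a at 16.3, 19.0 and 18.3 CPM against 17.6, 14.6 and 21.6 CPM. Hist1h2ak stood at 10.5, 4.64 and 6.5 CPM against 6.17, 2.39 and 5.77 CPM. All 3 overlapped. The smallest H2A p-values belonged to low rows, Hist1h2af (log2 fold change -1.30, edgeR adjusted p = 0.123) at 0.645 to 3.2 CPM and Hist1h2ad (log2 fold change -1.06, edgeR adjusted p = 0.153) at 0.194 to 1.15 CPM. Only 6% and 32.9% of their words were unique.

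In H2B, Hist1h2be stood at 24.5, 24.2 and 20.9 CPM against 24.5, 16.7 and 22.2 CPM, and Hist1h2bg at 20.5, 19.8 and 18.3 CPM against 15.9, 13.9 and 24.1 CPM. Hist2h2bb stood at 18.6, 13.1 and 18.3 CPM against 15.8, 10.4 and 17.7 CPM. These rows with the most counts overlapped between genotypes. Hist2h2bb had 0% unique words, so its values may include reads of other genes. It shared most words (53.6%) with Gm42743, which overlaps it on the same strand. Hist1h2bp had the largest fold change of all members, at 4.51, 1.03 and 1.49 CPM against 0.367, 0.387 and 0.758 CPM (log2 fold change -2.18, SE 0.60, edgeR adjusted p = 0.0553). It rests on few reads, and Srebp2WT replicate 1 lay far above the other two. Hist1h2bl was separated at 2.57, 2.00 and 2.91 CPM against 1.03, 0.516 and 1.63 CPM (log2 fold change -1.21, edgeR adjusted p = 0.0787). Its share of unique words was 17.2%. Hist1h2bb, whose start carries the octamer shown above, was separated as well, at 14, 11.1 and 14.3 CPM against 9.25, 5.35 and 10.8 CPM, and did not pass (edgeR adjusted p = 0.105). Hist3h2bb-ps is annotated as a processed pseudogene and stood at 1.22 to 2.58 CPM with overlap.

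Values are given for some of the 13 divergent pairs of H2A and H2B genes. In the pair Hist1h2ac and Hist1h2bc, with 250 bases between the starts, the log2 fold changes were -0.48 (SE 0.24) and 0.11 (SE 0.15). In Hist1h2bf and Hist1h2ad, 184 bases apart, they were -0.33 (SE 0.27) and -1.06 (SE 0.45). In Hist1h2bl and Hist1h2ai, 278 bases apart, they were -1.21 (SE 0.38) and -0.39 (SE 0.37). For Hist1h2ah and Hist1h2bk, 301 bases apart, they were -0.49 (SE 0.45) and -0.62 (SE 0.55). The difference within a pair was not tested.

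By position, only the chromosome 13 cluster had sums that did not overlap. Its 54 rows summed to 790, 695 and 777 CPM in Srebp2WT and 629, 541 and 673 CPM in Srebp2cKO. The 10 rows on chromosome 3 summed to 86.0, 70.3 and 79.5 CPM against 75.1, 57.4 and 73.6 CPM, which overlap. The 3 rows on chromosome 11 had means of 22.2 and 22.1 CPM, and Hist4h4, alone on chromosome 6, of 20.4 and 21.3 CPM. Whether these groups of rows differ from one another was not tested, and their gene models differ as well.

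Libraries of one genotype were unlike each other, and mostly in the same order. Among the 59 distinct tested rows, Srebp2cKO replicate 7 was the lowest Srebp2cKO library for 52 and replicate 8 the highest for 40. In Srebp2WT, replicate 1 was the highest for 32 and replicate 3 the lowest for 38. The median ratio of the highest to the lowest library was 1.49 in Srebp2WT and 1.92 in Srebp2cKO for the members, against 1.19 and 1.22 for all genes tested. The median biological coefficient of variation, edgeR's estimate of the spread between replicates beyond counting error, was 0.220 for the members, 0.101 for all genes and 0.153 for the 2544 genes of like level (2.12 to 12.1 CPM). Without Srebp2cKO replicate 7 the members' median log2 fold change was -0.28 and 0 members passed. It was -0.69 without Srebp2cKO replicate 8, -0.34 without Srebp2WT replicate 1 and -0.62 without Srebp2WT replicate 3. No member passed without Srebp2WT replicate 1 or without Srebp2WT replicate 3 either, and over the whole table the genes called lower dropped from 506 to 223, 135 and 155 in these 3 fits. For H3, the class sum kept its lower side in each of these fits, with log2 ratios from -1.06 to -0.63 over all 12 alternatives, against -0.87 with all libraries.

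**Figure D3:**
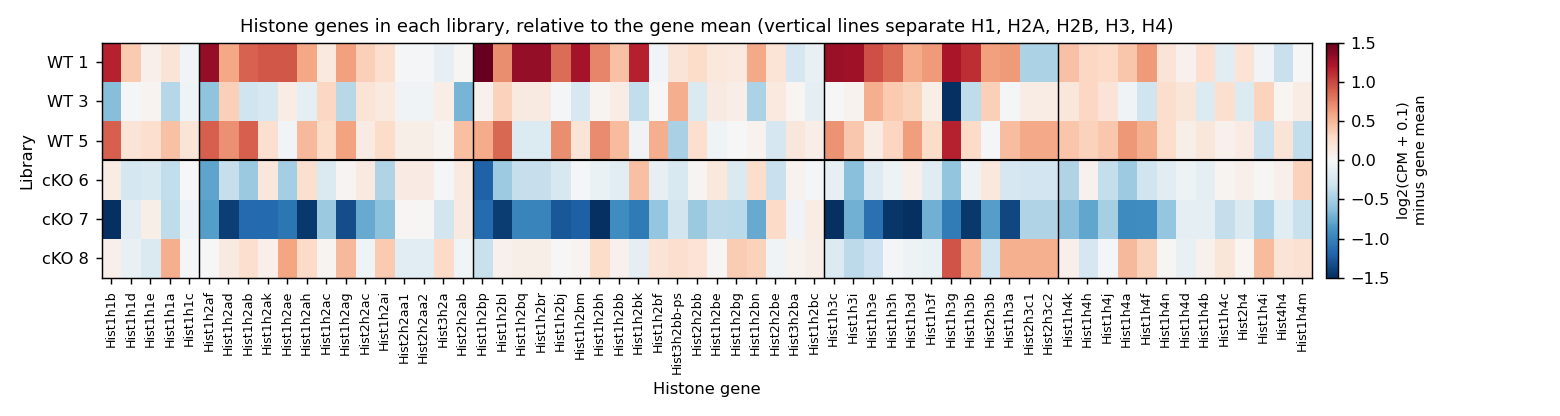
Level of each tested histone gene in each library, as log2(CPM + 0.1) minus the gene's mean over the 6 libraries, with colours limited to -1.5 and 1.5. Columns are genes in the class order H1, H2A, H2B, H3, H4, and rows are libraries. The row of Srebp2cKO replicate 7 is the darkest blue, and that of Srebp2WT replicate 1 the darkest red.

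Members whose gene model runs past the stem-loop differed less than the others by median log2 fold change. The model continued for 100 bases or more beyond the element in 23 rows, which held Hist1h1c, Hist1h1d, Hist1h1e and Hist1h4d among others. Their summed level was 592, 578 and 619 CPM in Srebp2WT and 532, 489 and 555 CPM in Srebp2cKO, without overlap, and the median over 22 tested rows was -0.18. The 23 rows whose model ended within 100 bases of the element summed to 177, 140 and 162 CPM against 127, 80.3 and 135 CPM, also without overlap, and their median over 21 tested rows was -0.61. The 22 rows with no element in the model summed to 143, 92.6 and 122 CPM against 88.4, 66.0 and 106 CPM, which overlap. Their median was -0.60 over 19 tested rows. The table counts whole genes, so reads before and after the element cannot be told apart. The difference between the kinds of model was not tested, and each kind holds a different mix of classes.

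These models also differ in base composition. Median GC content was 50.3% for the models that run on, 60.1% for those that end at the element and 62.7% for those without it, against 49.5% for all genes tested. Across all other genes, the log2 fold change moved with GC content, from a median of 0.23 in the lowest to -0.26 in the highest of 10 equal groups by GC content. The highest group held 30 of the 62 members, with a median of -0.58 beside -0.26 for the 1116 other genes in it. After a smooth trend on GC content was removed in each library, the members' median was -0.25, 49 of 62 were negative, and the medians by model were -0.22, -0.40 and -0.24 in the order above. With that correction Hist1h3e still passed, Hist1h3i (edgeR adjusted p = 0.126) and Hist1h4k (edgeR adjusted p = 0.346) did not, and Hist1h1d did (log2 fold change -0.61, edgeR adjusted p = 0.0113). Over the alternatives run, adjusted p ranged from 0.00611 to 0.174 for Hist1h3i, from 0.00729 to 0.346 for Hist1h4k and from 0.0113 to 0.254 for Hist1h1d.

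**Figure D4:**
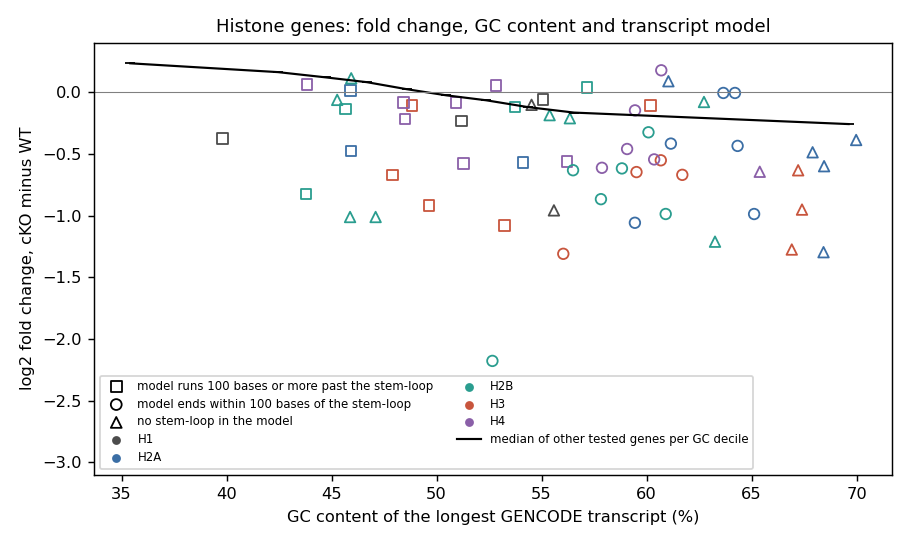
edgeR log2 fold change (vertical axis) of each tested histone gene against the GC content of its longest GENCODE transcript (horizontal axis, %). Colours mark the class and symbols the kind of model, and the line gives the median of the other tested genes in each of 10 equal groups by GC content. Models that run past the stem-loop lie mostly to the left, and the line falls from 0.23 to -0.26.

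Genes whose products copy DNA, package histones or divide the cell were read in the same fit. Among 9 tested variant histones, whose symbols lie outside the Hist1h to Hist4h rows, 1 fell and 0 rose, with a median of -0.25. That was Cenpa, the H3 variant of centromeres, at 27.8, 25.6 and 27.3 CPM against 19.0, 21 and 21.5 CPM (log2 fold change -0.39, SE 0.10, edgeR adjusted p = 0.0436). Its groups were separated by a clear gap, yet it passed in none of the 6 fits with one library left out (edgeR adjusted p from 0.0610 to 0.177). H2afx, the H2A variant phosphorylated at DNA breaks, was separated and did not pass (log2 fold change -0.45, edgeR adjusted p = 0.0686). H3f3a, which encodes the replacement histone H3.3, had the opposite sign, at 139, 147 and 150 CPM against 145, 208 and 185 CPM, and did not pass (log2 fold change 0.31, edgeR adjusted p = 0.120). H3f3b, the other H3.3 gene, and H2afy were positive too (log2 fold changes 0.16 and 0.08), and the summed level of the list was 951 CPM in Srebp2WT and 984 CPM in Srebp2cKO, overlapping, so the sum and the median differed in sign. Without Srebp2cKO replicate 6 the calls were H2afx lower and H3f3a higher.

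None of the 17 tested genes of histone mRNA synthesis and 3' processing passed, and their median was 0.05. Of these, 6 had an unadjusted p under 0.05, and DESeq2 called Casp8ap2 higher and limma-voom 0. Of all genes tested, 14.3% were lower and 14.8% higher at that p, the background for the decay genes below as well. Without Srebp2cKO replicate 6, Casp8ap2 and Cstf2 were called higher and Sympk lower. Npat stood at 62.0, 65.8 and 73.7 CPM against 68.6, 81.5 and 77.0 CPM, and Slbp at 37.9, 40.1 and 45.3 CPM against 37.9, 48.7 and 46.8 CPM, both overlapping and both named after their values were seen. The smallest p-values were those of Casp8ap2, which takes part in histone gene transcription (log2 fold change 0.34, edgeR adjusted p = 0.0648), and Ncbp1, the larger cap-binding subunit (log2 fold change 0.24, edgeR adjusted p = 0.0965). None of the 8 genes of histone mRNA decay passed (median 0.07, 2 with an unadjusted p under 0.05, 0 with DESeq2 and 0 with limma-voom, and Zcchc11 called higher without Srebp2cKO replicate 6). The smallest p-values there were those of Zcchc11, a uridylyl transferase (log2 fold change 0.27, edgeR adjusted p = 0.0981), and Eri1, the exonuclease that trims the stem-loop end (log2 fold change 0.24, edgeR adjusted p = 0.148).

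Among 23 genes of histone chaperones and acetylation, 1 rose and 0 fell, with a median of 0.07 that became 0.0016 without Srebp2cKO replicate 6. Npm1, the abundant nucleolar chaperone, stood at 427, 456 and 542 CPM against 572, 799 and 681 CPM (log2 fold change 0.53, SE 0.13, edgeR adjusted p = 0.0373). Its groups were separated, with Srebp2cKO replicate 7 the highest of all libraries. With one library left out it passed without Srebp2WT replicate 5 or Srebp2cKO replicate 6 and in none of the other 4 fits (edgeR adjusted p from 0.0180 to 0.166). Chaf1a, the large subunit of the chromatin assembly factor that deposits H3 and H4 behind the replication fork, was separated at 6.70, 4.38 and 7.51 CPM against 3.45, 2.84 and 3.91 CPM and did not pass (log2 fold change -0.86, edgeR adjusted p = 0.0599). Cdan1 was separated as well and did not pass (log2 fold change -0.36, edgeR adjusted p = 0.0549). DESeq2 and the fit with no filter called both lower, and Cdan1 was also called lower with total-count scaling and without Srebp2WT replicate 5 or Srebp2cKO replicate 6.

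Of 41 S phase genes, 1 fell and 0 rose, 30 were negative, and the median was -0.15. Tyms, which makes thymidylate for DNA synthesis, stood at 14.5, 11.8 and 14.1 CPM against 8.74, 9.61 and 8.28 CPM (log2 fold change -0.60, SE 0.14, edgeR adjusted p = 0.0332), without overlap. With one library left out it passed only without Srebp2cKO replicate 6 (edgeR adjusted p from 0.0451 to 0.142). Pold1, the catalytic subunit of DNA polymerase delta, was separated at 39.0, 36.1 and 38.4 CPM against 33.3, 26.2 and 27.8 CPM and did not pass (log2 fold change -0.38, edgeR adjusted p = 0.0557). It was called lower with DESeq2, total-count scaling or no filter and without Srebp2cKO replicate 6. As a percentage of the Srebp2WT mean, the summed level of the list was 100%, 93.5% and 106% in Srebp2WT and 91.3%, 97.4% and 100% in Srebp2cKO, which overlap. On the same scale H3 was 128%, 82.9% and 88.7% against 61.8%, 34.2% and 67.8%. Srebp2cKO replicate 7, the lowest library for H3, was the middle library of its group for the summed S phase genes. That sum weights abundant genes such as Dnmt1 (160, 165 and 174 CPM in Srebp2cKO), and single genes differed. Replicate 7 was the lowest of its group for Rrm2 (9.25, 7.03 and 11.3 CPM), Tk1, Ccna2, Mcm10, Uhrf1 and E2f1, among others. It was the highest for others, among them Tyms, Prim1 and Gins4. The part of S phase in the histone values was not tested.

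All 18 genes of G2 and mitosis were negative, with a median of -0.54, and none passed (DESeq2 and limma-voom called 0). At an unadjusted p under 0.05 there were 3 of them, against 14.3% lower and 14.8% higher of all genes tested. The median ran from -0.78 without Srebp2WT replicate 3 to -0.34 without Srebp2WT replicate 5, and 15 genes were negative without Srebp2cKO replicate 7. Mki67, the proliferation marker, stood at 85.8, 40.0 and 80.3 CPM against 36.1, 29.9 and 54.0 CPM, overlapping through Srebp2WT replicate 3 (log2 fold change -0.78, edgeR adjusted p = 0.102). It was called lower with no filter and without Srebp2WT replicate 3. Ccnb2, a mitotic cyclin, was separated at 4.45, 2.96 and 3.79 CPM against 2.72, 1.16 and 2.22 CPM (log2 fold change -0.88, edgeR adjusted p = 0.108). The summed level of the list was 123%, 62.3% and 115% of the Srebp2WT mean in Srebp2WT and 62.1%, 50.9% and 88.0% in Srebp2cKO. Within each genotype its order of libraries was that of the H3 sum, with replicate 3 lowest in Srebp2WT and replicate 7 lowest in Srebp2cKO. The part of cell division in the histone values was not tested.

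Other RNAs without a poly(A) tail were read because library preparation could treat them alike. Rmrp, the RNA of the mitochondrial RNA processing ribonuclease, stood at 463, 590 and 561 CPM against 397, 140 and 324 CPM, separated, and did not pass (log2 fold change -0.91, edgeR adjusted p = 0.0786). It was called lower with no filter and without Srebp2cKO replicate 6 or Srebp2cKO replicate 7. Terc, the telomerase RNA, was 10.2, 11.9 and 10.8 CPM against 9.69, 3.55 and 8.22 CPM, and Rpph1, the ribonuclease P RNA, 1539, 1885 and 1685 CPM against 1635, 945 and 1588 CPM. In each of the 3, Srebp2cKO replicate 7 was the lowest of all libraries, as it was for the summed H2A, H2B, H3 and H4. With Rprl3 left out, the summed level of these RNAs was 89.6%, 110% and 100% of the Srebp2WT mean in Srebp2WT and 92.2%, 48.8% and 85.9% in Srebp2cKO. Their median log2 fold change over 4 tested genes was -0.45, all 4 negative, -0.19 without Srebp2cKO replicate 7, and -0.12 with GC correction, 2 of 4 negative. Rprl3, annotated as a ribonuclease P RNA-like gene, was the only one of the 5 tested to pass, with 0 counts in all 3 Srebp2WT libraries and 1016, 515 and 1098 counts in Srebp2cKO (edgeR adjusted p = 6.97e-05). The part of RNA recovery in the histone values was not tested.

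**Figure D5:**
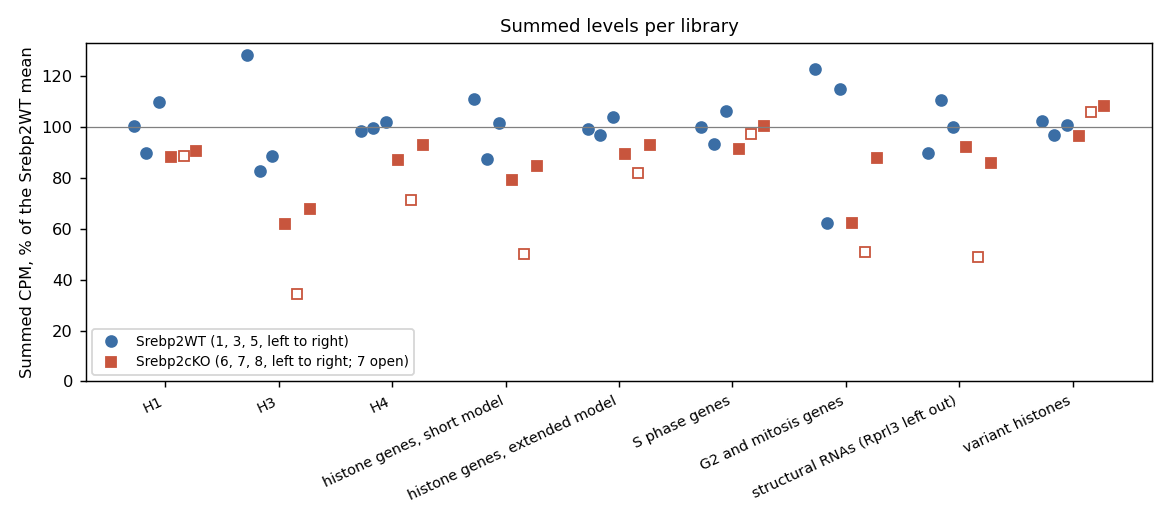
Summed CPM as a percentage of the Srebp2WT mean (vertical axis, from 0) for histone classes, kinds of histone gene model and other gene lists. Points are libraries in the order 1, 3, 5 (Srebp2WT, circles) and 6, 7, 8 (Srebp2cKO, squares, replicate 7 open). Replicate 7 is at 34.2% for H3, 48.8% for the structural RNAs and 97.4% for the S phase genes.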

How the data were processed

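RNA of purified mouse Tregs was sequenced in 6 libraries, 3 per genotype, from total RNA depleted of ribosomal RNA, per the labels' protocols. The authors deposited raw read counts per gene symbol. HISAT2 2.2.1, Cell Ranger and build mm10 are named, without roles, in the submitters' processing notes; the counting tool, annotation and strand setting were not stated in any source used here. Counts were tested over the whole table with edgeR 4.0.16 in R 4.3.3 (filterByExpr, TMM scaling, quasi-likelihood F test, Benjamini-Hochberg over 11932 genes, false discovery rate 0.05), checked on simulated data. Class sums include all rows and have no test. Gene models came from GENCODE M21 (GRCm38), promoters from RefSeq (GRCm38.p6). Alternatives were DESeq2 1.42.0, voom weights (limma 3.58.1), a robust fit, scaling by total count, upper quartile or RLE, 2 other filters, GC correction, a false discovery rate of 0.1, each library left out, and other sums. Named genes were all members called, the 3 with the most counts and the 2 with the smallest p in each class, and the called or smallest-p genes of other lists. A few further members are named to fill out a class or a pair. The members and lists were chosen with earlier results of these data known. Library totals were 13918321 to 17249898 counts, and no interval is given for single counts. One marker of the B cell list is not reported here.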

Additional observations from a re-analysis of the deposited data

How the results depend on the processing

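The number of histone genes called lower was 3 and moved to 9 with DESeq2, 9 with no filter, 12 at a false discovery rate of 0.1, and 0 to 3 with one library left out. It was 0 without Srebp2WT replicate 1, Srebp2WT replicate 3 or Srebp2cKO replicate 7, where genes called lower over the whole table also dropped, from 506 to 135, 155 and 223. Under no alternative was a histone gene called higher. Genes called over the whole table, in either direction, numbered 789. They rose too, to 1353 with DESeq2, 1205 with no filter and 1893 at a false discovery rate of 0.1. With one library left out they numbered 167 to 1487. The share of all genes called lower in those settings is not given, so the histone counts there are not a result about these genes. Total-count scaling split the calls into 184 higher and 570 lower, against 283 and 506. Of 314 log2 fold changes of 21 named histone genes under alternatives, 298 were negative, 271 kept direction and side of the threshold, 17 lost the call, 15 gained one and 11 reversed, all near 0. Hist3h2a turned to -0.011 with upper-quartile scaling, -0.021 with total-count scaling and -0.076 with GC correction, and Hist1h1c to 0.063 with GC correction. With one library left out, the range was -0.15 to 0.14 for Hist3h2a (negative without Srebp2WT replicate 1 or Srebp2cKO replicate 8), -0.11 to 0.022 for Hist1h1c (positive without Srebp2WT replicate 5), and, positive without Srebp2cKO replicate 7, -0.21 to 0.052 for Hist1h4c (also positive without Srebp2WT replicate 3), -0.40 to 0.033 for Hist1h2bg and -0.36 to 0.0041 for Hist2h2bb. The cause of these changes was not tested. With one library left out, Hist1h3e was called in 2 of 6 fits, and Hist1h3i and Hist1h4k in 1 each; limma-voom lost Hist1h3i and called Hist1h4h. Cenpa was called in 0, Tyms in 1 and Npm1 in 2 of 6 such fits, and each kept its direction in all 6. The log2 ratio of summed CPM stayed negative for each class in all 12 alternatives, from -1.06 to -0.63 for H3 and -0.34 to -0.16 for H4; for H1 it was -0.33 with the row of most counts left out, against -0.17. Counting identical rows once, and the fits of Cenpa, Tyms, Npm1 and the other lists, were added after seeing the data. No paired analysis was possible because the genotypes share no replicate number. Rows of few counts and of few unique words limit what single genes show.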
